A study of Mus musculus with 6 samples.

Results

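Tumor tissue of mouse livers was examined for 10 genes of TNF, IL-6 and IL-10 signaling, which are 10 of the 34099 genes counted. They were taken by symbol. The ligands are Tnf, Il6, Il10 and Osm, the receptor chains are Tnfrsf1a, Tnfrsf1b, Il6ra, Il6st and Il10ra, and Tnfaip3 is a feedback inhibitor. All 10 symbols had a single row in the count tables. The study asked how chronic stress changes hepatocellular carcinoma (HCC), and compared tumors of 3 control mice with tumors of 3 stress mice. All mice were adult male wild type C57BL/6J animals carrying orthotopic tumors of H22, a murine HCC cell line, and the stress mice had undergone chronic unpredictable mild stress before implantation while the control mice were kept in standard housing. H22 is a transplanted line, so these tumors stand for growth of 1 line in a host with an intact immune system and not for tumors that arise in the liver. Single-cell suspensions gave 1 droplet library per mouse, and the deposited annotation supplied the cell types.

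TNF is released mainly by activated myeloid cells and signals through TNFR1, the product of Tnfrsf1a found on most cells, and TNFR2, the product of Tnfrsf1b, which is more restricted to immune and endothelial cells. IL-6 binds IL-6Rα (Il6ra) and then recruits gp130 (Il6st), which oncostatin M (Osm) also uses, and both cytokines signal through JAK kinases and STAT3. IL-10 limits inflammatory cytokine production of myeloid cells through a receptor whose ligand-binding chain is Il10ra. Tnfaip3 encodes A20, a ubiquitin-editing enzyme that is induced by NF-κB and restrains it. In HCC, TNF and IL-6 made by myeloid cells are classical links between inflammation and tumor growth.

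All 10 members were annotated as protein-coding genes in GRCm38. Tnf lies at chr17:35199381-35202007 on the minus strand, Il6 at chr5:30013114-30019981 on the plus strand, Il10 at chr1:131019845-131024974 on the plus strand and Osm at chr11:4236420-4241026 on the plus strand. Tnfrsf1a lies at chr6:125349362-125362484 and Tnfrsf1b at chr4:145213463-145246870. Tnfaip3 lies at chr10:19000910-19015657. Il6st lies at chr13:112464070-112510086. Il10ra, at chr9:45253837-45269149, overlaps 2 annotated genes, and Il6ra, at chr3:89864059-89913196, overlaps 1 on the other strand. Whether counting used the strand is not given in the sources used here, so UMIs of Il6ra and of that antisense gene cannot be told apart with certainty.

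Sequence before RefSeq transcript starts is shown for Il6 and Tnfaip3, since both are classical NF-κB targets and since NF-κB is the arm of the pathway that joins TNF to IL-6. RefSeq windows (GRCm38.p6) were at hand for 7 of the 10 members. Capitals mark matches, on either strand, to GGGNNNTTCC, a simplified form of the κB motif that was chosen with the sequences in view. The Il6 window, chr5:30012864-30013113 on the plus strand, and the first Tnfaip3 window, chr10:19015411-19015660 on the minus strand, each held 1 match. The first base of the match lay 44 bases before the RefSeq start that the Il6 window belongs to and 12 bases before that of the Tnfaip3 window. The Il6 window ends where the gene span given above begins. The Tnfaip3 window belongs to a RefSeq start further downstream than the GENCODE gene start and lies almost wholly inside the span given above.
Il6: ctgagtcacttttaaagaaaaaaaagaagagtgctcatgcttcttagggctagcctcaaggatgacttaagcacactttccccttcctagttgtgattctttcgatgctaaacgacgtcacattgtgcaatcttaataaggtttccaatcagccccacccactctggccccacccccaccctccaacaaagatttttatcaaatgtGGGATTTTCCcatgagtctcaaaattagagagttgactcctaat
Tnfaip3: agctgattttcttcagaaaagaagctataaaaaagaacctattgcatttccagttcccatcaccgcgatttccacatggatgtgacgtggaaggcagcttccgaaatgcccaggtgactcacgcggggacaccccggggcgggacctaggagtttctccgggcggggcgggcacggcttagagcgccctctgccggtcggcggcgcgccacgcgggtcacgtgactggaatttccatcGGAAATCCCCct
Of 32851 upstream windows of 250 bases, 4.65% held a match, and a second Tnfaip3 window also held 1. The windows of Tnf, Tnfrsf1a, Tnfrsf1b, Il6ra and Il6st held none, which says only that these letters are absent from those 250 bases. A match is a description of the sequence and not a measured binding site.

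The 58794 annotated cells carried 149558935 to 187728350 UMIs per mouse, where a UMI (unique molecular identifier) marks 1 captured RNA molecule. Median UMIs per cell ranged from 7166 to 20478 between mice. The matrix headers name Cell Ranger 9.0.0 for control and 7.1.0 for stress libraries, so the effect of the program version cannot be told apart from that of stress. Of the cells, 778 had a barcode that also occurred in another library. Scrublet called 3.11% to 6.38% of the cells of a library doublets, and they were kept unless stated. The paper reports that its authors had already used Scrublet to remove doublets and had left out cells of low quality. The doublet rates given here are from a new run over the annotated cells and are not rates of unfiltered cells. Levels are given as CPM, the UMIs of a gene per 1000000 UMIs of the same mouse and cell type. A sum does not by itself tell fewer cells with a UMI from fewer UMIs per such cell. Listed markers were highest in their own type for 7 of 7 ECs markers, 6 of 7 for Monocytes, 6 of 6 for NK/T cells, Inflammatory myeloid cells and HSCs (hepatic stellate cells), 5 of 5 for B cells, 5 of 6 for DCs and Neutrophils, 3 of 6 for Tumor cells and 0 of 5 for M-MDSCs. Neutrophils and HSCs had fewer than 10 cells in at least 1 mouse and entered no test. Cell types were clustered on these same genes, so levels across cell types are given as a description only.

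Tnf and Osm were myeloid. Inflammatory myeloid cells had the highest mean Tnf level, 395 CPM ± 138 (SD, n = 6 mice), followed by Monocytes with 249 CPM ± 96.3, and the ranges of these neighbours over mice overlapped. Every Monocytes sum, the lowest being 134 CPM, lay above every DCs sum, the highest being 47.2 CPM. Tumor cells were lowest at 0.949 CPM ± 0.630. Osm, a gp130 cytokine, followed a similar order, with 870 CPM ± 354 in Inflammatory myeloid cells, 547 CPM ± 154 in Monocytes, 98.9 CPM ± 95.2 in M-MDSCs and 74.1 CPM ± 27.1 in DCs. Of these neighbours only Monocytes and M-MDSCs did not overlap over mice. Neutrophils had a mean of 750 CPM ± 405 from only 4 to 57 cells per mouse. Monocytes, 10.6% of all cells, and Inflammatory myeloid cells, 10.7%, together held most UMIs of both ligands. Monocytes held 57.6% of Tnf and 56.8% of Osm UMIs and Inflammatory myeloid cells 29.1% and 28.0%.

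Il6 was much more restricted than Tnf within the myeloid cells. Monocytes averaged 227 CPM ± 99.1, from 108 to 385 CPM, and held 82.5% of all Il6 UMIs. Inflammatory myeloid cells, the highest in Tnf, had an Il6 level of only 3.34 CPM ± 3.22, with 57 UMIs in 6307 cells. HSCs, which are mesenchymal cells of the liver, averaged 118 CPM ± 62.5 from 128 cells in all and overlapped Monocytes, and M-MDSCs averaged 63.0 CPM ± 37.6. The lowest Monocytes sum, 108 CPM, lay only slightly above the highest M-MDSCs sum, 102 CPM.

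Il10 was the ligand with the fewest UMIs, 3339 over all cells. Among the tested cell types its highest levels were in Monocytes at 31.3 CPM ± 24.5, B cells at 26.5 CPM ± 9.15 and NK/T cells at 15.1 CPM ± 3.03. The ranges of neighbours in this order overlapped. HSCs, which were not tested and are not in this order, held 38 Il10 UMIs in 128 cells. Tumor cells had 1.49 CPM ± 0.478, yet with 50.4% of the cells and the deepest libraries per cell they held 1307 Il10 UMIs, 39.1% of the total. The same cells held 753 Tnf UMIs, fewer than Il10, whereas Monocytes held 10924 Tnf and 1220 Il10 UMIs, so both genes were not in 1 ratio over the cell types.

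Shares of cells with at least 1 UMI depend on depth and were compared after each cell was thinned to 1000 UMIs. Thinned, Tnf was seen in 17.3% of Monocytes (95% Clopper-Pearson interval 16.4% to 18.3%) and 24.2% of Inflammatory myeloid cells, against 0.0819% of Tumor cells. Il6 was seen in 13.1% of Monocytes, 0.319% of Inflammatory myeloid cells and 0.0750% of Tumor cells. Osm reached 36.3% of Monocytes and 42.2% of Inflammatory myeloid cells against 0.174% of Tumor cells. Il10 was seen in 2.11% of Monocytes (1.76% to 2.50%) and in 0.136% of Tumor cells (0.0975% to 0.186%). Without thinning the shares in Monocytes, at a median of 5291 UMIs per cell, were 41.8% for Tnf, 28.3% for Il6, 67.9% for Osm and 5.97% for Il10, and those in Tumor cells, at a median of 27716 UMIs, were 2.20%, 1.70%, 5.36% and 4.21% in the same order. Thinning left out 89 Monocytes, 984 Inflammatory myeloid cells and 324 Tumor cells. The intervals cover counting error only.

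The receptor chains were placed differently from their ligands. Il6st, the gp130 chain shared by IL-6 and Osm, was highest in ECs at 1651 CPM ± 549, where even the lowest mouse, 860 CPM, lay far above the highest sum of HSCs, the next in order, at 219 CPM. ECs held 80.6% of all Il6st UMIs. Tnfrsf1a was also highest in ECs, 246 CPM ± 19.6, but it was found in Inflammatory myeloid cells at 153 CPM ± 76.5 and Monocytes at 113 CPM ± 29.0 as well, and the ranges of these neighbours overlapped. Tnfrsf1b reached only 11.9 CPM ± 4.14 in ECs and was highest in Inflammatory myeloid cells at 411 CPM ± 172, with Monocytes at 168 CPM ± 23.9 and NK/T cells at 165 CPM ± 20.7, and the neighbours in this order overlapped. Il10ra was highest in Inflammatory myeloid cells, 132 CPM ± 58.9, and Monocytes, 127 CPM ± 32.0, which overlapped, and was 0.515 CPM ± 0.366 in Tumor cells. Il6ra was highest in Monocytes, 68.0 CPM ± 14.9, and was low in ECs at 7.63 CPM ± 1.59, the cells richest in Il6st. Tnfaip3 was highest in Inflammatory myeloid cells at 661 CPM ± 230, with NK/T cells at 393 CPM ± 59.8 and Monocytes at 330 CPM ± 56.3, and these neighbours overlapped. Among Monocytes, 80.9% of the cells with a Tnf UMI also had a Tnfaip3 UMI, against 52.0% of those without, a difference to which depth per cell was not matched.

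**Figure D1:**
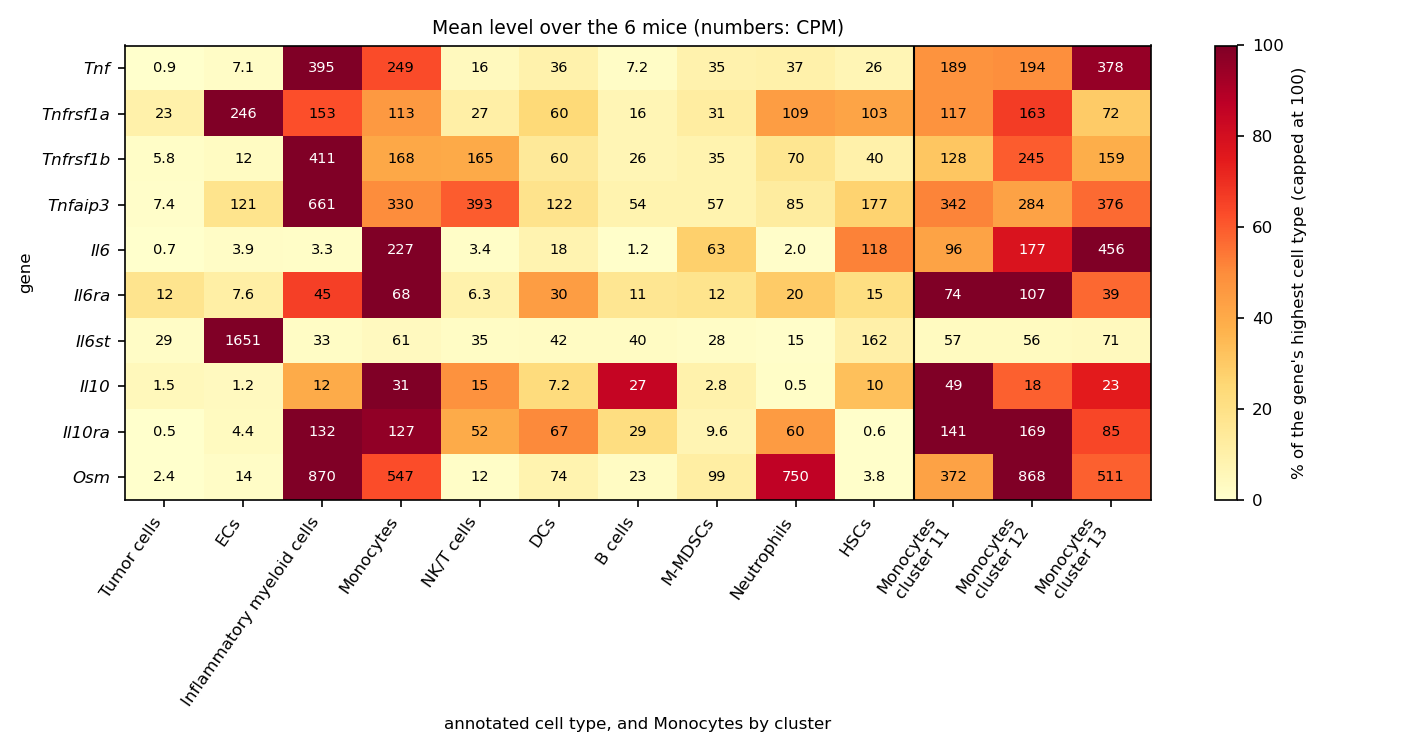
Mean level of each of the 10 genes (rows) in each annotated cell type and in the 3 Monocytes clusters (columns) over 6 mice. Numbers are CPM and color is the percent of the cell type where that gene is highest, capped at 100, so colors compare cell types within a gene only. Il6st stands out in ECs at 1651 CPM and Il6 in Monocytes at 227 CPM. Neutrophils and HSCs include mice with fewer than 10 cells.

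By the likeness of log2(CPM + 1) over 48 sums (8 cell types in 6 mice, 11290 genes compared), the genes closest to Tnf were Ccrl2 (Pearson r = 0.941), Slfn1 (0.940) and 4930430E12Rik (0.932). Those closest to Osm were Nlrp3 (0.943), the inflammasome sensor, Emilin2 (0.938) and Ccl6 (0.938). Those closest to Il6 were Adora2b (0.798), an adenosine receptor, C3ar1 (0.796) and Ccl9 (0.794), and those closest to Il10 were Map3k5 (0.858), Rilpl2 (0.841) and Ly6c2 (0.833). Sums of a mouse share a library and sums of a cell type share their cells' identity, so these values only describe the pattern over cell types.

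The 3 clusters annotated as Monocytes divided the ligands between them. Cluster 13 had the highest Il6 level in 5 of 6 mice, with a mean of 456 CPM ± 230 against 177 CPM ± 51.4 in cluster 12 and 96.1 CPM ± 49.2 in cluster 11, which was the lowest in 6 of 6 mice. Tnf was likewise highest in cluster 13 in 5 of 6 mice, at a mean of 378 CPM ± 158. Cluster 12 was the highest in Osm in 6 of 6 mice, with 868 CPM ± 220, and it was also the highest in 6 of 6 mice in Il6ra, at 107 CPM ± 23.5, Tnfrsf1a, at 163 CPM ± 32.6, and Tnfrsf1b, at 245 CPM ± 33.9. Il10 had its highest mean in cluster 11, 48.7 CPM ± 32.7, the highest in 4 of 6 mice. Cluster 13 was the lowest in Il6ra, Tnfrsf1a and Il10ra in 6 of 6 mice, so the cluster with most Il6 carried least of the IL-6 receptor α chain. The clusters were made from the same genes and this order is a description.

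The cells annotated M-MDSCs (monocytic myeloid-derived suppressor cells), which had a mean Il6 level of 63.0 CPM, had none of 5 listed markers of that name at its highest and held cells of very different depth. They were parted at 5000 UMIs per cell after their values were seen, and only 3 of the 350 cells lay between 4000 and 7500 UMIs. The 89 shallow cells, with a median of 1885 UMIs, held 90.1% of the Il6 UMIs of the class, 54.7% of its Osm UMIs, 22.5% of its Tnfaip3 UMIs and 14.7% of its Tnf UMIs. Their pooled Il6 level was 2910 CPM, against 6.58 CPM in the 261 deeper cells, with a median of 31744 UMIs. Osm was 3329 CPM against 56.8 CPM, Tnfaip3 691 CPM against 49.2 CPM and Tnf 267 CPM against 32.0 CPM. In the shallow cells Il6 was seen in 59 of 89 cells (66.3%) and Osm in 70 (78.7%), whereas Il6ra was seen in 0 of 89.

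The Il6 level of the shallow cells was high in both groups. It was 856 CPM in control mouse 1 from 2 cells, 1711 CPM in control mouse 2 from 40 cells and 4285 CPM in control mouse 3 from 8 cells. In stress mice 1, 2 and 3 it was 4301, 3346 and 4207 CPM from 5, 13 and 21 cells. The groups overlapped, 3 of these sums rest on fewer than 10 cells, and no test was made. The genes most raised in these cells over all other cell types were Il4 (1638 CPM against 0.141 CPM), Ccl4, Cyp11a1 (1040 CPM against 0.336 CPM), Ccl3, Il6, Slc24a3, Ifitm1 and Cd200r3, followed by Hdc, the histidine decarboxylase that makes histamine, Rgs1 and Il13. Il4, Il13, Hdc and Cd200r3 are known from basophils and mast cells, for which no marker list had been set, so these cells are called here by their leading genes. Scrublet called 5.62% of the shallow and 82.8% of the deeper cells doublets. The part of doublets in the level of the deeper cells was not tested.

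**Figure D2:**
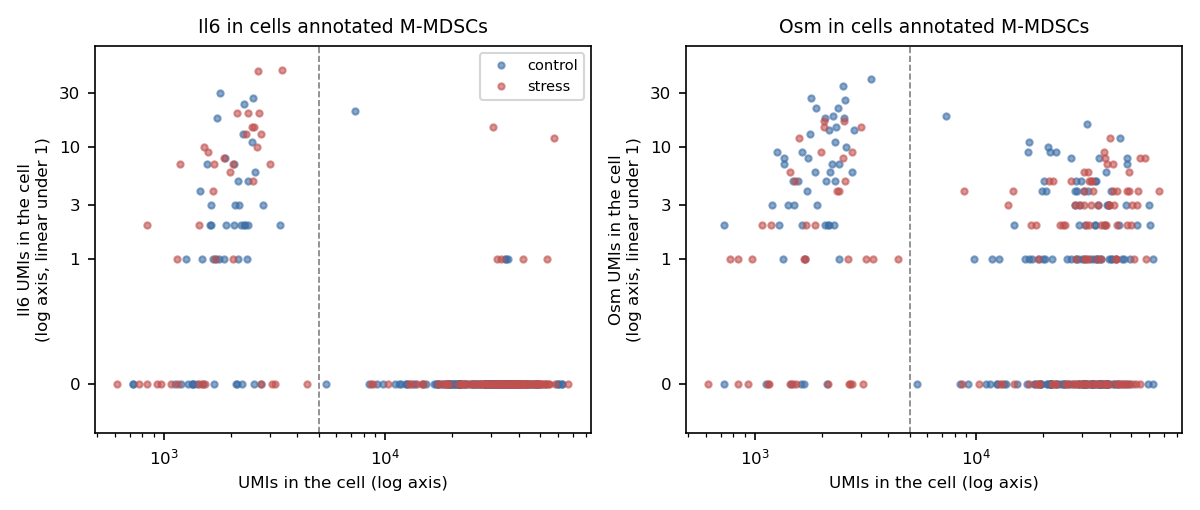
Each point is 1 of the 350 cells annotated M-MDSCs, with its total UMIs on a log axis and its UMIs of Il6 (left) or Osm (right) on an axis that is linear under 1 and logarithmic above, colored by group. The dashed line is at 5000 UMIs. The 89 cells left of it hold 90.1% of the Il6 UMIs, from control and stress mice alike.

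Stress was compared with control within each cell type on UMIs summed per mouse, with edgeR's quasi-likelihood test and Benjamini-Hochberg adjustment over all genes of the cell type. With 1 library per mouse, p-values measure the spread between mice, which includes that between preparations. In Tumor cells 2 of 10 members passed an adjusted p of 0.05, where 21.4% of all 18856 genes did, so this share is not above that of other genes. Of the members, 3 had an unadjusted p under 0.05 (37.4% of all genes) and 3 had groups that did not overlap (38.3% of all genes).

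Tnfrsf1a, the gene of the main TNF receptor of non-immune cells, fell in Tumor cells. Its level was 26.2, 28.3 and 25.4 CPM in control mice and 18.2, 20.4 and 21.3 CPM with stress, so every stress mouse was lower than every control mouse. The log2 fold change (stress against control) was -0.56 ± 0.081 (SE, adjusted p = 0.00626, edgeR). In ECs, where Tnfrsf1a is highest, the log2 fold change was 0.02 ± 0.12 (adjusted p = 0.941, edgeR). A test of whether the stress effect on Tnfrsf1a differed between cell types did not pass (adjusted p = 0.919, edgeR).

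Il10 UMIs in cells annotated Tumor cells fell, at a very low level. It was 1.95, 2.11 and 1.63 CPM in control mice and 1.01, 1.06 and 1.17 CPM with stress, without overlap. The log2 fold change was -0.96 ± 0.17 (adjusted p = 0.0108, edgeR). Both members passed under all 11 alternatives. Without thinning, 4.36%, 5.33% and 5.20% of Tumor cells had an Il10 UMI in control mice and 3.14%, 3.03% and 3.25% with stress, without overlap, at median depths of 21971 to 32523 and 31042 to 32080.5 UMIs per cell. Thinned to 1000 UMIs, 3 to 15 cells per control mouse and 0 to 6 per stress mouse had one, which overlapped. Over all mice, Il10 was then seen in 0.136% of Tumor cells (0.0975% to 0.186%) and in 0.0832% of ECs (0.0380% to 0.158%), from 40 and 9 cells with a UMI, too few to compare the shares. Whether the UMIs came from the Tumor cells themselves was not tested.

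The third member with an unadjusted p under 0.05 in Tumor cells was Il6ra, with 15.3, 11.0 and 14.8 CPM in control and 10.7, 9.42 and 11.6 CPM with stress, which overlapped. Its log2 fold change was -0.52 ± 0.17 (adjusted p = 0.0634, edgeR). It passed in 3 of 11 alternatives, with the replicate block (adjusted p = 0.0140), with DESeq2 (0.0173) and without control mouse 2 (0.00984). Tnfaip3 was 6.29, 6.59 and 6.38 CPM in control and 7.11, 7.54 and 10.3 CPM with stress, without overlap, and its log2 fold change was 0.22 ± 0.15 (adjusted p = 0.307, edgeR).

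**Figure D3:**
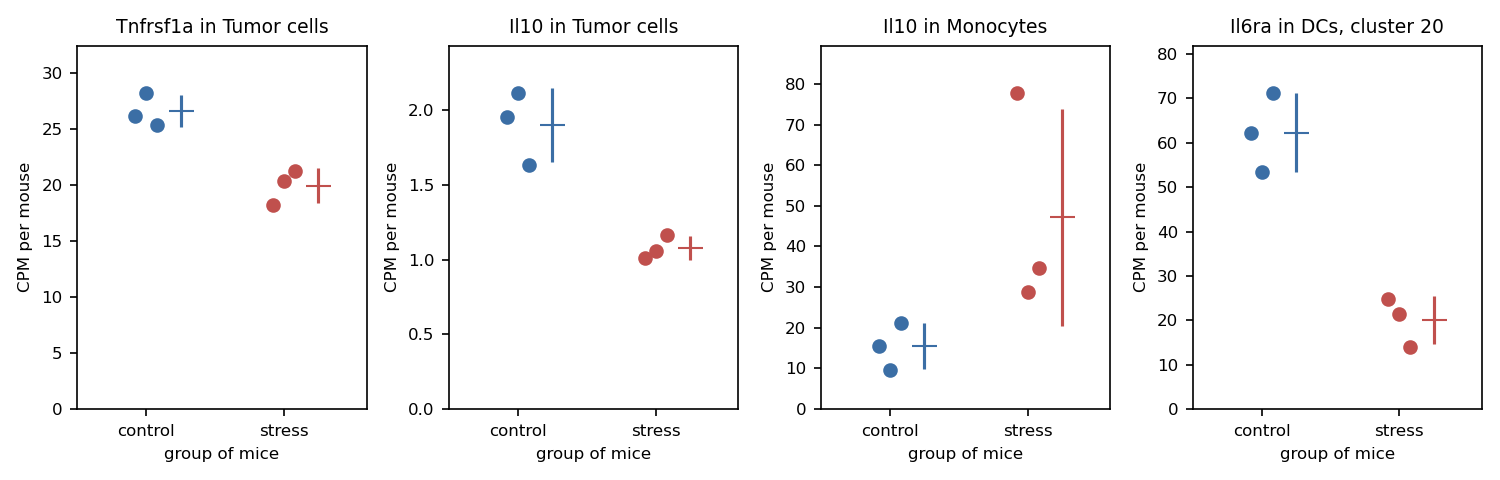
CPM per mouse (points), with mean and SD beside them, of Tnfrsf1a and Il10 in Tumor cells, Il10 in Monocytes and Il6ra in DCs of cluster 20, for control (blue) and stress (red) mice. All axes start at 0. In each panel the groups do not overlap, and Il10 is lower in Tumor cells and higher in Monocytes of stress mice. Groups did not overlap for 38.3% of all genes tested in Tumor cells and for 18.0% in Monocytes. No such share is given for cluster 20. Both genes passed in Tumor cells. Il10 in Monocytes (adjusted p = 0.239, edgeR) and Il6ra in cluster 20 (adjusted p = 0.0559, edgeR) did not pass.

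In Monocytes 0 of 10 members passed with edgeR, where 0.122% of 12251 genes did. Il10 alone had an unadjusted p under 0.05, as 12.0% of all genes did, and DESeq2 called 1 member, Il10. Its level was 15.6, 9.73 and 21.3 CPM in control mice and 77.8, 28.9 and 34.8 CPM with stress, so all stress mice were higher, with stress mouse 1 far above the others. Groups did not overlap for 18.0% of all genes. For Il10 the log2 fold change was 1.64 ± 0.44 (adjusted p = 0.239, edgeR). Blocking on the replicate number gave 1.54 and an adjusted p of 0.04999, just under the threshold, and with DESeq2 the adjusted p was 0.0168. The range of adjusted p over 12 alternatives was 0.00757 to 0.559. Il6, a second ligand with its highest level in Monocytes, was 175, 171 and 229 CPM in control and 292, 108 and 385 CPM with stress. The groups overlapped, with a log2 fold change of 0.51 ± 0.42 (adjusted p = 0.644, edgeR) that was 0.08 without stress mouse 3 and 0.90 without stress mouse 2.

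Between the Monocytes clusters, the fitted change of Il6 took both signs. In cluster 13 it was 217, 363 and 307 CPM in control mice and 655, 377 and 818 CPM with stress, so stress mice were higher without overlap, by a log2 fold change of 1.12 ± 0.34 (adjusted p = 0.384, edgeR). In cluster 12 it was 219, 207 and 179 CPM in control and 147, 89.0 and 221 CPM with stress, which overlapped, with a log2 fold change of -0.30 ± 0.30. In cluster 11 the log2 fold change was 0.25 ± 0.47. A test of the difference of the stress effect between the 3 clusters, with the mouse as a term, called 0 of 10 members (0% of 10545 genes), and 3 members, Il6, Il10ra and Tnfaip3, had an unadjusted p under 0.05 (4.94% of genes). For Il6 the unadjusted p was 0.000423 and the adjusted p 0.406 (edgeR).

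Il10 was higher in stress mice in each cluster by the fitted values, with a log2 fold change of 1.36 ± 0.58 in cluster 11 (adjusted p = 0.427, edgeR), 1.22 ± 0.61 in cluster 12 (0.438) and 1.61 ± 0.46 in cluster 13 (0.342). The value in cluster 11 was 0.73 without control mouse 2 and 2.24 without control mouse 3, and that in cluster 13 was 1.02 without stress mouse 1. Without the filter on low counts Il10 passed in cluster 11 (adjusted p = 7.84e-05, edgeR) and in cluster 13 (0.000119). The share of all genes that passed without the filter is not given, so these calls cannot be set beside it. In cluster 13 the Il10 levels were 7.66, 11.1 and 15.5 CPM in control and 59.6, 23.2 and 23.9 CPM with stress, without overlap. In clusters 11 and 12 the groups overlapped for Il10. Il6ra was lower in cluster 11, with 103, 73.5 and 111 CPM in control and 50.7, 52.6 and 51.7 CPM with stress, a log2 fold change of -0.78 ± 0.19 (adjusted p = 0.174, edgeR). Tnfaip3 was 450, 278 and 344 CPM in cluster 12 of control mice and 228, 148 and 256 CPM in that of stress mice, a log2 fold change of -0.67 ± 0.28 (adjusted p = 0.342, edgeR). None of these passed with the filter. In cluster 11, 0 members passed (0.102% of genes) and 2 had an unadjusted p under 0.05 (11.4%), in cluster 12 these were 0 (0.218%) and 1 (13.0%), and in cluster 13 they were 0 (0.0984%) and 2 (8.69%), while DESeq2 called 0 in each. In cluster 13 the groups did not overlap for 2 members, as for 12.1% of genes. The share of Monocytes in cluster 13 averaged 44.1% ± 18.4 in control and 27.1% ± 13.5 in stress mice, so the clusters with the least and the most Il6 weighed differently between mice. With equal numbers of cells of each cluster in every mouse, the log2 fold change of Il6 in Monocytes was 0.89 (adjusted p = 0.309, edgeR).

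**Figure D4:**
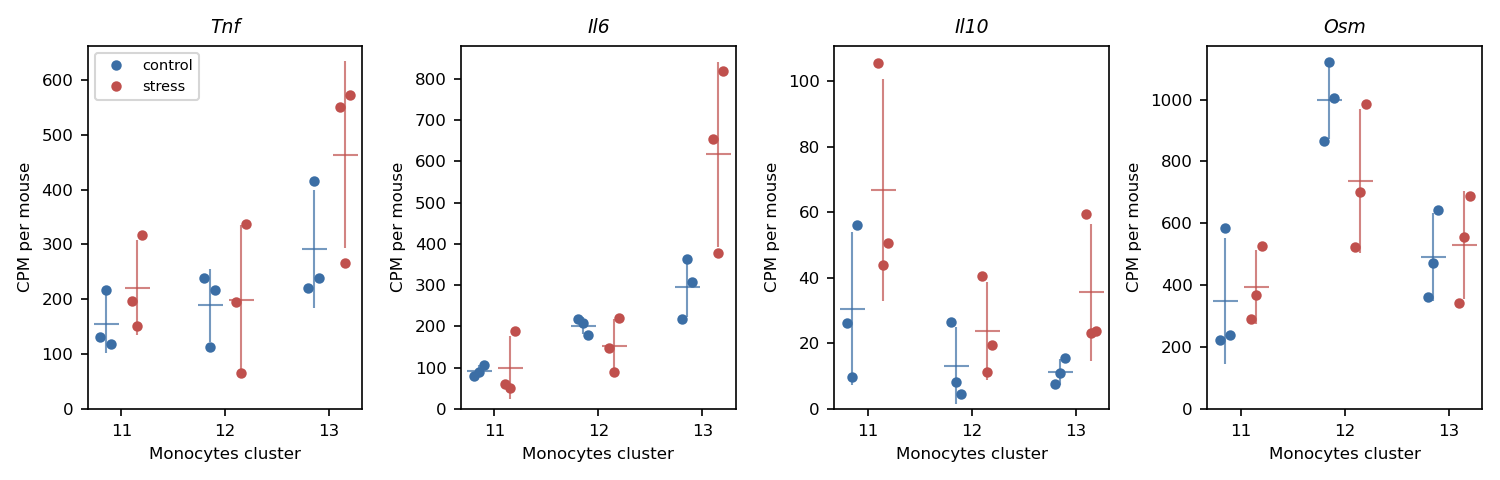
CPM per mouse of Tnf, Il6, Il10 and Osm in Monocytes clusters 11, 12 and 13, with points for control (blue) and stress (red) mice and lines for mean and SD (n = 3). Il6 in cluster 13 runs from 217 to 363 CPM in control and from 377 to 818 CPM with stress, while it overlaps in clusters 11 and 12, and Osm is highest in cluster 12.

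In DCs, 0 members passed with edgeR (2.64% of 10533 genes) and 0 with DESeq2, and 3 had an unadjusted p under 0.05 (17.0%) and groups that did not overlap (25.4%). These were Il6ra, Il6st and Il10ra, all receptor chains. Il6ra was 35.4, 36.1 and 41.9 CPM in control and 30.2, 18.5 and 19.5 CPM with stress, with a log2 fold change of -0.71 ± 0.23 (adjusted p = 0.138, edgeR). Il6st was 28.3, 36.5 and 36.6 CPM in control and 58.0, 41.2 and 54.0 CPM with stress, with 0.65 ± 0.20 (adjusted p = 0.116, edgeR). Il10ra was 46.0, 62.5 and 61.3 CPM in control and 72.3, 77.4 and 82.0 CPM with stress, with 0.53 ± 0.16 (adjusted p = 0.112, edgeR).

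The DCs were made of clusters 19 and 20, and cluster 20 held 25.3%, 40.5% and 25.9% of them in control mice, against 50.4%, 63.3% and 52.2% with stress. Within cluster 20 alone, Il10ra had a log2 fold change of 0.01 ± 0.23 (adjusted p = 0.994, edgeR), and its level was 106 to 163 CPM in cluster 20 and 22.3 to 40.8 CPM in cluster 19 over the 6 mice. Il6ra was 62.2, 53.5 and 71.2 CPM in cluster 20 of control mice and 24.7, 21.5 and 14.1 CPM in that of stress mice, a log2 fold change of -1.55 ± 0.31 (adjusted p = 0.0559, edgeR), and in cluster 19 the groups overlapped. Il6st was 0.91 ± 0.34 in the same fit (adjusted p = 0.289, edgeR). In cluster 19 the Il10ra level was 22.3, 29.3 and 32.6 CPM in control and 33.6, 29.5 and 40.8 CPM with stress, and the groups overlapped. The part of the class makeup in the Il10ra difference was not tested.

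Of all DCs, 19.5% were called doublets, and they were mostly in cluster 19, where 16.9% to 54.7% of the cells of a mouse were called, against 0% to 10.0% in cluster 20. The summed level of the 6 listed Tumor cells markers was 522 to 815 CPM in cluster 19, 27.1 to 174 CPM in cluster 20 and 696 to 974 CPM in Tumor cells. Over all DCs this sum was 444 to 542 CPM in control and 319 to 459 CPM in stress mice, with at least 5 of 6 markers seen in each mouse. Without called doublets the log2 fold change was -1.17 for Il6ra (adjusted p = 0.127, edgeR), 0.37 for Il6st (0.450) and 0.18 for Il10ra (0.739).

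Over the cell types, Il6ra had a negative fitted log2 fold change in 7 of 7 tested, from -0.71 to -0.003, although none passed. Of 2751 genes tested in 7 cell types, 15.2% were negative in all 7. In ECs it was 8.82, 10.1 and 7.72 CPM in control and 6.21, 7.098 and 5.86 CPM with stress, without overlap, and the log2 fold change was -0.50 ± 0.17 (adjusted p = 0.250, edgeR). Groups did not overlap for 22.8% of the genes tested in ECs. B cells, where Il6ra was too low to be tested with 47 UMIs in all, had 4.75, 5.56 and 13.2 CPM in control and 14.1, 15.7 and 15.3 CPM with stress. Positive fitted values were found for Tnfrsf1b in 7 of 8 tested cell types, for Tnf in 6 of 7, for Il10 in 5 of 6 and for Il10ra in 6 of 8, and the other members were split more evenly. Positive values in all cell types or all but 1 were found for 17.5% of the genes tested in 8 cell types, 16.1% of those tested in 7 and 24.2% of those tested in 6. For 6 of 8, the count of Il10ra, no share over all genes was computed. In M-MDSCs, where Il10 was too low to be tested with 30 UMIs in all, it was 2.58, 6.12 and 4.38 CPM in control and 0, 1.42 and 2.49 CPM with stress, without overlap and lower with stress. In DCs, also not tested, it was 1.77, 4.17 and 4.49 CPM in control and 26.9, 2.68 and 2.92 CPM with stress, which overlapped. The cell types of a mouse share its library, so these are not independent of each other.

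In ECs 0 members passed (0.213% of 14090 genes, and 0 with DESeq2) and 2 had an unadjusted p under 0.05 (15.6%), Il6ra and Tnfaip3. Tnfaip3 was 117, 153 and 161 CPM in control and 86.8, 79.1 and 127 CPM with stress, which overlapped, with a log2 fold change of -0.58 ± 0.21 (adjusted p = 0.265, edgeR). Il6st, at its highest in ECs, was 860, 1715 and 1386 CPM in control and 1424, 2178 and 2343 CPM with stress, with 0.56 ± 0.29 (adjusted p = 0.396, edgeR), and control mouse 1 was the lowest of the 6 mice.

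In Inflammatory myeloid cells 0 of 9 tested members passed, as 0% of 9219 genes, and 0 with DESeq2, and 2 had an unadjusted p under 0.05 (3.96%). Il10 was 6.54, 4.51 and 11.8 CPM in control and 9.29, 23.7 and 18.4 CPM with stress, which overlapped, with a log2 fold change of 1.31 ± 0.54 (adjusted p = 0.994, edgeR). Il6st had 1.12 ± 0.51 (0.994). Tnf, at its highest here, was 212, 448 and 553 CPM in control and 499, 246 and 412 CPM with stress, with 0.04 ± 0.56 (0.998). Osm was 701, 1434 and 831 CPM in control and 361, 1002 and 894 CPM with stress, with -0.23 ± 0.60 (0.994). Both ligands overlapped widely between the groups.

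In M-MDSCs 0 of 9 tested members passed (0.561% of 9443 genes, and 0 with DESeq2) and Il6 had an unadjusted p under 0.05 (9.56%). It was 5.16, 78.5 and 28.3 CPM in control and 86.5, 77.6 and 102 CPM with stress, which overlapped, with a log2 fold change of 1.02 ± 0.43 (adjusted p = 0.468, edgeR). Without control mouse 2, whose class held 40 of the 89 shallow cells, it was 1.95 and passed (adjusted p = 0.0145). The class held 2, 40 and 8 shallow cells in control and 5, 13 and 21 in stress mice, and their part in the value was not tested. In B cells 0 of 5 tested members passed (0.483% of 5796 genes, and 0 with DESeq2), and Tnfaip3 had an unadjusted p under 0.05 (11.1%), with 71.2, 33.4 and 19.8 CPM in control and 68.0, 84.9 and 49.0 CPM with stress and a log2 fold change of 0.94 ± 0.40 (adjusted p = 0.421, edgeR). In NK/T cells 0 of 10 passed (0.857% of 11196 genes, and 0 with DESeq2), and 0 had an unadjusted p under 0.05.

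**Figure D5:**
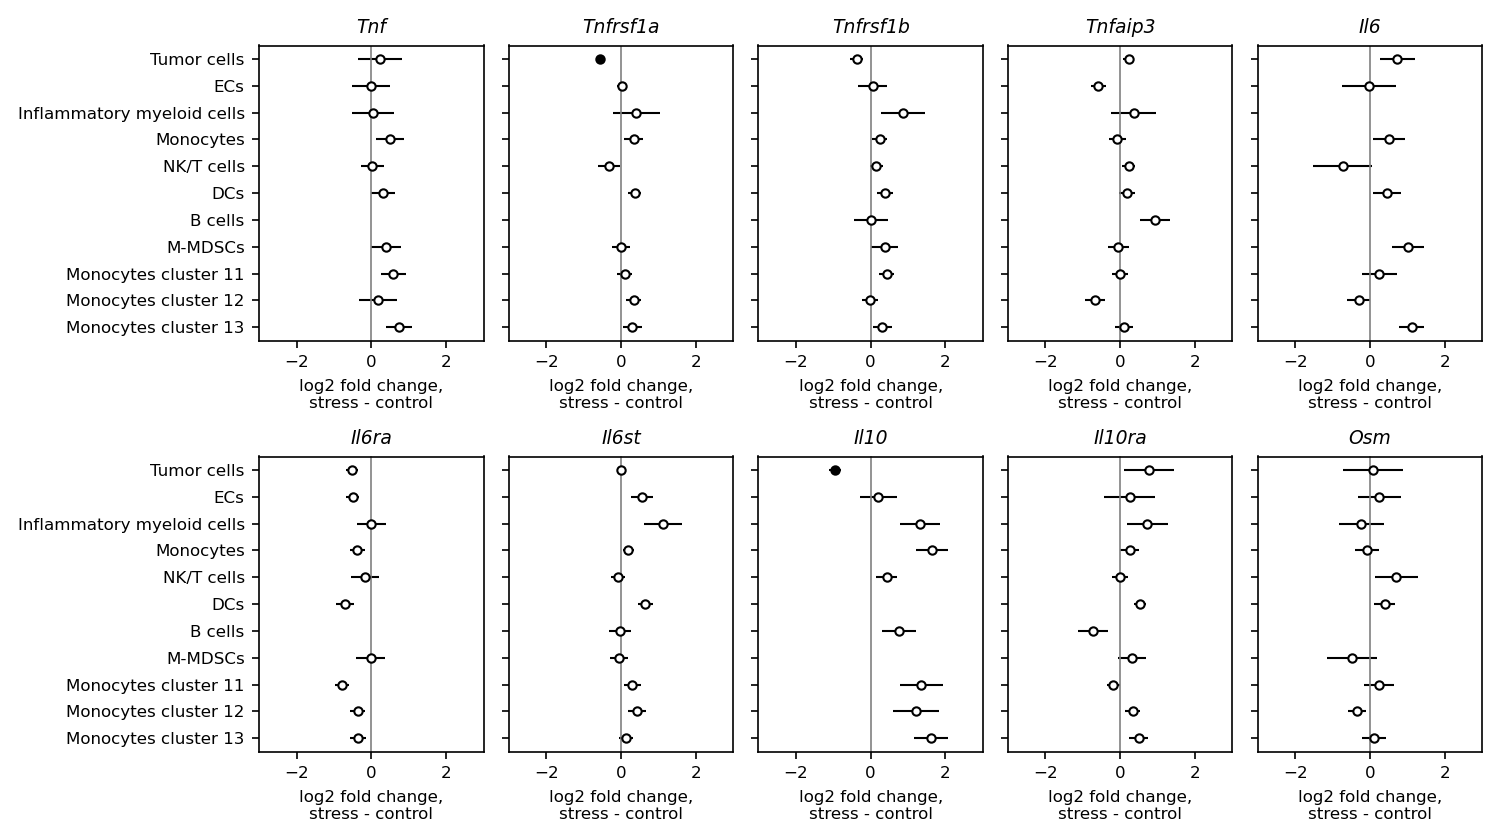
Log2 fold change of stress against control (points) with its standard error (bars) for each of the 10 genes, 1 panel each, in the 8 tested cell types and the 3 Monocytes clusters, from edgeR. Filled points passed an adjusted p of 0.05, which were Tnfrsf1a and Il10 in Tumor cells, and a missing point was not tested. Il6ra lies at or left of 0 in all 7 cell types tested.

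A test of whether the stress effect differed between the 8 cell types called 0 of 10 members (0.233% of 14596 genes), and 2 had an unadjusted p under 0.05 (8.61%), Il10 (adjusted p = 0.249, edgeR) and Il6st. Between Monocytes and Tumor cells alone, compared after the values were seen, 0 members passed (0.0634% of 18928 genes) and 3 had an unadjusted p under 0.05 (7.58%). For Il10 the stress effect was 2.47 higher in Monocytes on the log2 scale (adjusted p = 0.107, edgeR). Without control mouse 2 this test passed for Il10.

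Of 76 further genes of the pathways, in 5 lists, 75 were tested in Tumor cells, where 3 rose and 6 fell, below the 21.4% of all genes called. Of the 4041 genes called there, 2258 rose. In the list of the TNF receptor complex and NF-κB machinery 0 rose and 2 fell of 22, Traf5 (log2 fold change -0.87 ± 0.11, adjusted p = 0.00489, edgeR), an adaptor of TNF receptors, and Rbck1 (-0.45 ± 0.088), a subunit of the linear ubiquitin ligase. The list's median was -0.14, beside -0.01 over all genes. Of 15 genes of JAK-STAT3 transduction 1 fell, Stat3 itself (-0.62 ± 0.13, adjusted p = 0.0158, edgeR), with a median of -0.15. Of 11 gp130 cytokines and receptors Ebi3 (1.11 ± 0.28) rose and Il11ra1 (-0.37 ± 0.097) fell, with a median of 0.24. Of 19 NF-κB feedback and early target genes Ccl2 (1.32 ± 0.39), a monocyte chemoattractant, rose, with a median of 0.07. Of 11 tested genes of the IL-10 response Slamf1 (1.36 ± 0.33) rose and Ddit4 (-1.05 ± 0.22) and Nfil3 (-0.39 ± 0.12) fell, with a median of -0.35. Of these 9 genes Traf5 alone passed under all 11 alternatives. Rbck1 passed in 9 and was lost without control mouse 1 or 3. Stat3, Ebi3, Il11ra1 and Slamf1 passed in 7 each, and all 4 were lost without control mouse 1 or 3 or without stress mouse 2 or 3. Ddit4 passed in 7 and was lost without control mouse 3 or any one stress mouse. Ccl2 (adjusted p = 0.0496, edgeR) passed in 6, with log2 fold changes from 0.73 without stress mouse 3 to 1.65, and was lost without any one mouse other than stress mouse 2. Nfil3 (adjusted p = 0.0498, edgeR) passed in 5 and was lost without any one mouse other than control mouse 2, and under RLE normalization. Each of the 9 kept its direction in these alternatives. Whether the UMIs of these 9 genes came from the Tumor cells themselves was not tested.

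In DCs 8 of 65 tested pathway genes rose and 0 fell, where 2.64% of all genes were called and 224 of those 278 rose, so the upward direction was that of most called genes in DCs. From the TNF receptor complex and NF-κB machinery Birc2 (log2 fold change 1.10 ± 0.21, adjusted p = 0.0152, edgeR) and Nfkb1 (1.03 ± 0.24) rose, 2 of 20, with a median of 0.26. From NF-κB feedback and early targets Tnip3 (1.06 ± 0.25), Rel (1.03 ± 0.17) and Nfkbie (0.90 ± 0.21) rose, 3 of 19, with a median of 0.48 beside -0.02 over all genes. Of 15 JAK-STAT3 genes Fgl2 (1.13 ± 0.17) and Jak2 (0.94 ± 0.20) rose, with a median of 0.16, and of 9 IL-10 response genes Etv3 (1.08 ± 0.24) rose, with a median of 0.19. Of 5 tested gp130 cytokines and receptors 0 passed, with a median of 0.43. The share of cluster 20 was higher in stress mice, and its part in the change of these genes was not tested. Within cluster 20 none of the 8 passed, with log2 fold changes of 0.32 to 0.77, where only 0.313% of all genes were called. Without called doublets none of the 8 passed either, with log2 fold changes from 0.65 for Nfkbie to 0.9996 for Birc2 and adjusted p from 0.120 to 0.335 (edgeR), each fold change below that in all DCs, and only 0.110% of all genes were called there. With so few genes called in both fits, 0 of 8 says little about these genes. Of 12 alternatives Fgl2 passed in 10, Rel in 9, Birc2 and Etv3 in 7 each, and Jak2, Nfkb1, Nfkbie and Tnip3 in 5 each. Leaving out stress mouse 3 ended 7 of the 8 calls, and leaving out stress mouse 1 ended 6. In NK/T cells Jak2 (0.79 ± 0.17, adjusted p = 0.0481, edgeR) and Il4ra (0.96 ± 0.20, adjusted p = 0.0416) rose, 2 of 69, where 0.857% of all genes were called and 60 of those 96 rose. Of 11 alternatives Jak2 passed in 5 (adjusted p up to 0.174) and Il4ra in 6 (up to 0.202), and leaving out any one mouse other than stress mouse 2 ended both calls. In Monocytes 0 of 71 passed, with list medians of 0.15 for the TNF receptor complex and NF-κB machinery, 0.35 for NF-κB feedback and early targets, 0.32 for gp130 cytokines and receptors, 0.27 for JAK-STAT3 and 0.46 for the IL-10 response, all above the -0.01 of all genes. This was not particular to Monocytes. All 5 list medians also lay above that of all genes in Inflammatory myeloid cells (0.17 to 0.65), NK/T cells (0.10 to 0.27) and DCs (0.16 to 0.48). They did so in B cells too (0.01 to 0.79), where the highest is the value of only 1 tested gene. In ECs and M-MDSCs they lay on both sides of the median of all genes. Of the pathway genes tested in ECs (72), Inflammatory myeloid cells (64), B cells (48) and M-MDSCs (58), 0 passed in each.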

How the data were processed

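The authors deposited filtered 10x matrices of UMI counts, 1 per mouse, made with Cell Ranger (9.0.0 for control, 7.1.0 for stress libraries, per the file headers) on mm10, and a cell annotation. Replicates are separate mice. The members and pathway lists were chosen with earlier results of these data known. Counts of annotated cells were summed per mouse and cell type (at least 10 cells in every mouse) and compared by the quasi-likelihood test of edgeR 4.0.16 (R 4.3.3) after filterByExpr and TMM scaling. Benjamini-Hochberg adjustment ran over all genes tested, at a threshold of 0.05. Cells called doublets by Scrublet (scanpy 1.11.5) were kept, and leaving them out was an alternative, as were RLE scaling, DESeq2 1.42.0, no filter, a replicate block and each mouse left out. M-MDSCs were not tested without called doublets, since control mouse 1 kept only 7 of these cells. Cells were thinned to 1000 UMIs for shares.

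Fold changes are given for members with an unadjusted p under 0.05, for each ligand in its highest tested cell type, and for up to 3 passing pathway genes per list and cell type. Those of Tnfrsf1a and Il6st in ECs, Tnfaip3 in Tumor cells, and Il6 and Il10 in other Monocytes clusters were added after values were seen. Likewise added after seeing the data were the counts of signs over cell types, DCs of cluster 20 alone, Monocytes against Tumor cells, and the M-MDSCs parted by depth. The deviations of same-numbered mice had correlations all over 0.1 in Monocytes (0.515, 0.455 and 0.160), Inflammatory myeloid cells (0.659, 0.108 and 0.481) and Monocytes cluster 13 (0.404, 0.419 and 0.295). In no other cell type were all over 0.1, but single values were as high in ECs (0.607, 0.456 and 0.0491) and Tumor cells (0.623, 0.484 and -0.223). Mice of unlike numbers were not compared, so these values cannot tell whether the numbers pair mice. The labels do not say that the numbers pair mice. On counts simulated for Monocytes (12238 genes), the test recovered 43 of 97 genes changed by 1 and 103 of 103 changed by 2 on the log2 scale, with 5 false calls of 151. The simulation gave all genes the same dispersion of 0.05 and changed only genes above a floor of expected counts. It therefore does not tell how often a change is missed in members with more spread or fewer counts.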

Additional observations from a re-analysis of the deposited data

Results flagged for a closer look

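The fitted stress effect on Il10 had opposite signs in Monocytes (log2 fold change 1.64) and Tumor cells (-0.96), a difference of 2.60 between the separate fits. It was flagged because every stress mouse lay above every control mouse in Monocytes and below every one in Tumor cells. This separation was the rule of choice and adds no support. Groups did not overlap for 18.0% of all genes tested in Monocytes and for 38.3% in Tumor cells. In 1 fit over both cell types the difference was 2.47 (adjusted p = 0.107, edgeR). The level in Tumor cells was very low, and whether those UMIs came from the Tumor cells themselves was not tested.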

How the results depend on the processing

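Of 146 recomputed counts of members, 134 stayed within 1.5 times the reported count. Only Tumor cells had a reported count above 0. Elsewhere a count that stayed was 0 again, which does not show that a called result is stable. In Monocytes 1 member, Il10, passed with no filter on low counts, with the replicate block and with DESeq2, and the block changed no other count by over 1.5 times. With no filter, 1 member passed in B cells (Osm), 1 in M-MDSCs (Il6), 2 in Monocytes cluster 11 (Il10 and Il6ra) and 2 in cluster 13 (Il10 and Il6). With no filter 1 member, Il6, differed in its stress effect between Monocytes clusters, 4 between cell types (Il10, Il6, Osm and Tnfaip3), and 1 between Monocytes and Tumor cells (Il10). No share of all genes called is given for the fits with no filter. These counts can therefore not be set beside it and are no result about the members. With a mouse left out, the counts ranged from 0 to 1 in M-MDSCs (Il6) and from 0 to 1 between Monocytes and Tumor cells (Il10), each reaching 1 without control mouse 2, and from 2 to 3 in Tumor cells. Of 235 recomputed fold changes of members 7 changed sign, all for ligands in Inflammatory myeloid cells that had not passed. Osm was 0.19 without control mouse 2 and 0.12 without stress mouse 1. With a mouse left out Osm ranged from -0.64 to 0.19. Tnf was -0.046 with no filter and -0.15 without called doublets. With a mouse left out it ranged from -0.38 (no control mouse 1) to 0.37 (no control mouse 3), and was negative also at -0.29 (no stress mouse 3) and -0.073 (no stress mouse 1). Of 217 recomputed fold changes of pathway genes 87 no longer passed and 0 changed sign. Thinning to 1000 UMIs gave shares in Monocytes of 17.3% for Tnf, 13.1% for Il6, 2.11% for Il10 and 36.3% for Osm, and in Tumor cells of 0.0819%, 0.0750%, 0.136% and 0.174%. Apart from the thinned shares, where depth was set by construction, the cause of these changes was not tested. With 3 mice a group, a change of 1 on the log2 scale was often missed in simulated data.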
